A study of Mus musculus with 20 samples.

Results

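Agrin-treated C2C12 myotubes that also received the monovalent antibody 11-3F6xb12 were compared with agrin-treated myotubes that received a control antibody. C2C12 is a mouse myoblast line whose cells fuse into multinucleated myotubes after serum withdrawal. The comparison holds 8 of the 20 libraries of the series, 4 per group, chosen by their treatment labels alone and paired by replicate number. Cells were differentiated for 5 days in medium with 2% horse serum and then treated for 16 h. The agrin group received 0.1 nM neural agrin with 7.7 nM b12 hIgG4, a negative control antibody. The 11-3F6xb12 group received the same dose of neural agrin with 7.7 nM 11-3F6xb12, which the labels describe as inhibiting and monovalent, so that agrin is present in both groups. The agrin with 13-3B5xb12 group (a second monovalent antibody at the same dose, 4 libraries) and the control group (7.7 nM b12 hIgG4 with no agrin, 4 libraries) are used where they place a value. All libraries come from 1 cell line with no nerve present, and the model of activation is soluble neural agrin rather than a motor axon.

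Agrin is the proteoglycan by which motor axons tell muscle where to build a synapse. It binds the receptor Lrp4, which then activates the receptor tyrosine kinase MuSK, and Dok7 binds the phosphorylated kinase from inside the cell to sustain its activity. The pathway is best known for gathering acetylcholine receptors under the nerve through the scaffold rapsyn, and MuSK also binds bone morphogenetic proteins. A bivalent antibody can pull MuSK molecules together, while a monovalent one binds a single molecule.

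Total RNA was depleted of ribosomal RNA and counted per gene. The 8 libraries held 21774545 to 23343903 counts and 17089 to 18259 genes with at least 1 count. Each of the 10 myotube markers was detected in all 8 libraries, and together they held 1.52% to 1.74% of the counts in the agrin group and 1.38% to 1.51% in the 11-3F6xb12 group. The leading principal component of the 20 libraries, with 21.0% of the variance, set replicates 1 and 2 of every group apart from replicates 3 and 4, which is why pairs are given throughout. The library of the agrin group labelled replicate 3 held 33.6 CPM (here counts per 1000000 of the library total) from 13 hepatocyte genes against 0.398 to 0.780 in the other 3 agrin libraries and 0.130 to 0.557 in the 11-3F6xb12 libraries. Albumin (Alb), for example, had 126 counts in that library and 0 in the other 7. Its part in the results below was not tested beyond leaving that library out.

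Ogn and mt-Nd1 rose with 11-3F6xb12, and no gene was called lower. Ogn encodes osteoglycin, a small leucine-rich proteoglycan of the extracellular matrix, and mt-Nd1 encodes a subunit of respiratory complex I in the mitochondrial genome. They were 2 of 14605 genes tested, or 0.0137%, in edgeR's quasi-likelihood test with the replicate number as a block and Benjamini-Hochberg adjustment at 0.05. At an unadjusted p under 0.05, 706 genes (4.83%) passed, 418 of them higher (2.86%) and 288 lower (1.97%). DESeq2's Wald test on the same design called 3 genes, adding Spon2. With no replicate block no gene was called, and 487 passed at an unadjusted p under 0.05. Without 2 libraries of other groups that stood apart on the second principal component (replicate 1 of agrin with 13-3B5xb12 and replicate 2 of the control), the same test called 17 genes: Ogn, mt-Nd1, mt-Rnr2, mt-Co1, Spon2, Mt2, Sh3bgrl, Gulp1 and Car2 higher, and Syne2, Macf1, Vps13c, Sipa1l1, Cebpd, Nsd3, Fn1 and Myo10 lower.

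Most of the transcriptome lay close to equality between the groups. Of the 14605 genes, 7232 had a positive and 7373 a negative log2 fold change, with a median of -0.00. Among the 8811 genes above 8 CPM (from here on counts per 1000000 after scaling with TMM factors), 95% had an absolute log2 fold change under 0.25, against a median standard error of 0.10. The split of the unadjusted genes depended on the scale: with library totals in place of TMM factors the median gene shifted to -0.09 and 101 genes were higher and 1213 lower at an unadjusted p under 0.05, while Ogn and mt-Nd1 were still the 2 genes called.

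**Figure D1:**
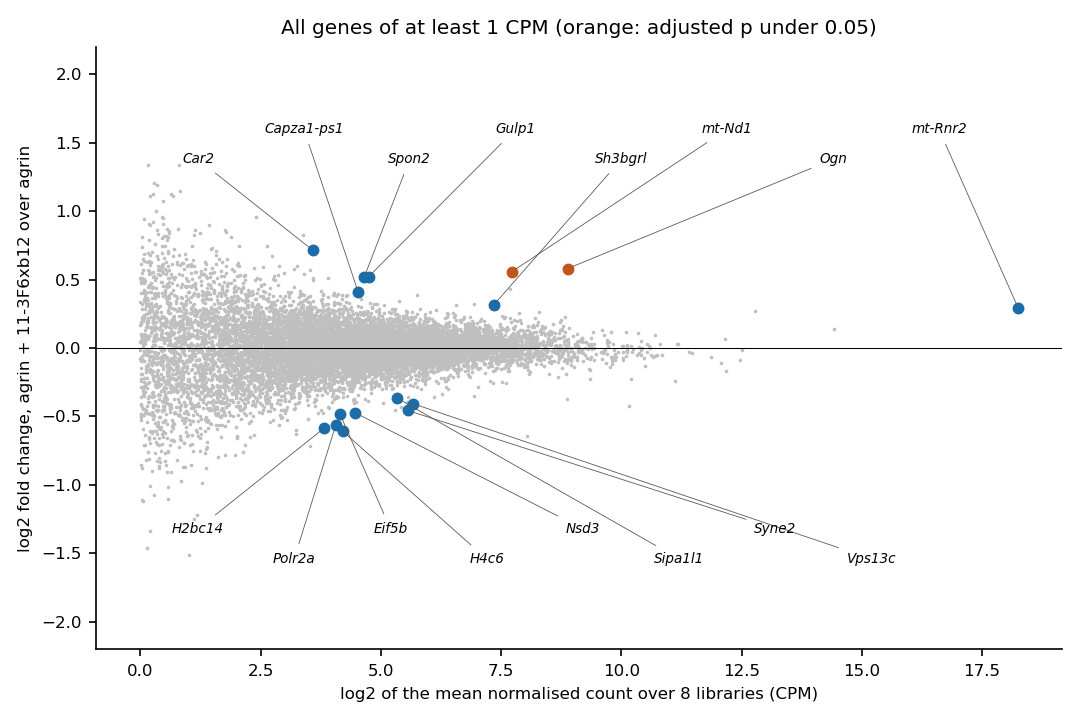
Log2 fold change of agrin with 11-3F6xb12 over agrin (vertical axis) against the log2 mean normalised count over the 8 libraries (horizontal axis, CPM) for 12165 genes of at least 1 CPM, 1 of which lies outside the axis. Orange marks the 2 genes with an adjusted p under 0.05 (Ogn and mt-Nd1), and blue the other 14 genes ranked by unadjusted p among those with 4 of 4 pairs in one direction.

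Ogn carried the clearest difference of the comparison. Its normalised counts were 450, 435, 363 and 269 CPM in replicates 1 to 4 of the agrin group and 591, 707, 512 and 453 CPM in the matching 11-3F6xb12 libraries. All 4 libraries with 11-3F6xb12 were above all 4 agrin libraries, as for 1.66% of all genes, and each pair moved the same way, by 0.39 to 0.75 on the log2 scale. The group means were 379 ± 82.8 and 565 ± 110 CPM (SD, n = 4), a fold of 1.5 (log2 fold change 0.58, SE 0.07, edgeR adjusted p = 8.38e-05). Leaving out any 1 library or any replicate number kept Ogn among the called genes. It missed the threshold where the block was dropped (log2 fold change 0.58, SE 0.20, edgeR adjusted p = 1.00). In both groups replicates 1 and 2 stood above replicates 3 and 4.

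Ogn (ENSMUSG00000021390, chr13:49608046-49624501, plus strand, GRCm38) stands at one end of a row of related genes on chromosome 13: Ecm2, Aspn, Omd and Ogn follow each other in that order, all on the plus strand and all within the span of Cenpp, a kinetochore gene on the opposite strand. No exonic base of Ogn, Omd or Ecm2 is shared with an exon of Cenpp, and 7 bases of Aspn are. Cenpp had 3.32 ± 1.3 CPM in the agrin group and 2.94 ± 1.36 CPM with 11-3F6xb12 (log2 fold change -0.20, unadjusted p = 0.54). Aspn encodes asporin, a collagen-binding relative of decorin, Omd encodes osteomodulin, and Ecm2 encodes a matrix protein with leucine-rich repeats.

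Aspn was at 20.5, 25.3, 14.1 and 8.45 CPM in the agrin libraries and at 27.6, 32.1, 17.0 and 12.7 CPM with 11-3F6xb12 (log2 fold change 0.39, SE 0.18, edgeR adjusted p = 0.98). It was higher in 4 of 4 pairs, but the groups overlapped because replicates 1 and 2 stood well above replicates 3 and 4. Omd was at 6.41, 3.94, 6.83 and 2.75 CPM in agrin and at 9.42, 11.8, 6.24 and 5.64 CPM with the antibody (0.67, SE 0.30, adjusted p = 0.98), higher in 3 of 4 pairs. Ecm2 showed little difference (0.08, SE 0.23), with means of 4.38 ± 1.88 and 4.52 ± 1.37 CPM. Of the 4 neighbours, Ogn alone passed the test.

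The 250 bases upstream of the RefSeq start of Aspn, Omd and Ogn (GRCm38.p6, plus strand, 5′ to 3′) are shown because these 3 neighbours had the largest fold changes of the row. Capitals mark matches on either strand to CANNTG (the E-box bound by myogenic factors) or TATAAA (the TATA motif). No match to CCGGAA, an ETS core, was found.
Aspn, chr13:49544193-49544442: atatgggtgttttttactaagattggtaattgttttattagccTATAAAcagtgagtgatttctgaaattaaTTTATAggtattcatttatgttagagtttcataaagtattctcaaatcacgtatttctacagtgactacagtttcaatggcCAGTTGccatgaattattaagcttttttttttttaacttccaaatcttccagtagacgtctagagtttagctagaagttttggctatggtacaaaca
Omd, chr13:49582212-49582461: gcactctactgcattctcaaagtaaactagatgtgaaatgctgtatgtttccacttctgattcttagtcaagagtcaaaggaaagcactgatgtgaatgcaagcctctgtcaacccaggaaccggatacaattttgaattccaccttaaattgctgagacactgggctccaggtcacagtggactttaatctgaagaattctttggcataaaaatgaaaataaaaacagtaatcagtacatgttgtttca
Ogn, chr13:49607765-49608014: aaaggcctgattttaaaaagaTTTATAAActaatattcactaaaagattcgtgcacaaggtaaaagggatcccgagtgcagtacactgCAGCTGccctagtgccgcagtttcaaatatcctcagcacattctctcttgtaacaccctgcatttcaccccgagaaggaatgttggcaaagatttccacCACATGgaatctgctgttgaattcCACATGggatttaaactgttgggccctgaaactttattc

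The Ogn window held 3 matches to CANNTG and 2 overlapping matches to TATAAA, one on each strand. The Aspn window held 1 match to CANNTG and 2 to TATAAA, and the Omd window held none of either. Among 32851 RefSeq promoter windows of the same length, 66.2% held CANNTG, 12.4% held TATAAA and 12% held CCGGAA.

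The other small leucine-rich proteoglycans gave a mixed picture. The list had 17 names, 15 of which are in the count table and 11 of which passed the filter on low counts. Besides Ogn, no member was called; 4 passed an unadjusted p under 0.05 on the higher side (Ogn, Lum, Omd and Aspn) and 1 on the lower side (Podnl1), against 2.86% and 1.97% of all genes. Lum, which encodes lumican, a keratan sulphate proteoglycan that spaces collagen fibrils, was at 9.32, 7.04, 5.65 and 7.41 CPM in agrin and at 13.7, 12.1, 8.79 and 9.49 CPM with 11-3F6xb12 (0.58, SE 0.18, edgeR adjusted p = 0.71). Its 4 pairs all pointed upward, and replicate 3 of the antibody group, at 8.79 CPM, lay within the agrin range.

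Decorin (Dcn), the most abundant member, was at 847 ± 26.9 CPM in agrin and 921 ± 54.2 CPM with the antibody (0.12, SE 0.08, unadjusted p = 0.13). Podnl1 had a log2 fold change of -0.25 (SE 0.11) and Bgn, which encodes biglycan, of -0.16 (SE 0.17). Tsku, Prelp and Fmod had log2 fold changes of -0.11, 0.07 and -0.19, each smaller than its standard error. The median over the 11 members was 0.08, against -0.00 over all genes, but it was -0.04 without replicate 4 and -0.01 with library totals, while it was 0.43 without replicate 3.

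**Figure D2:**
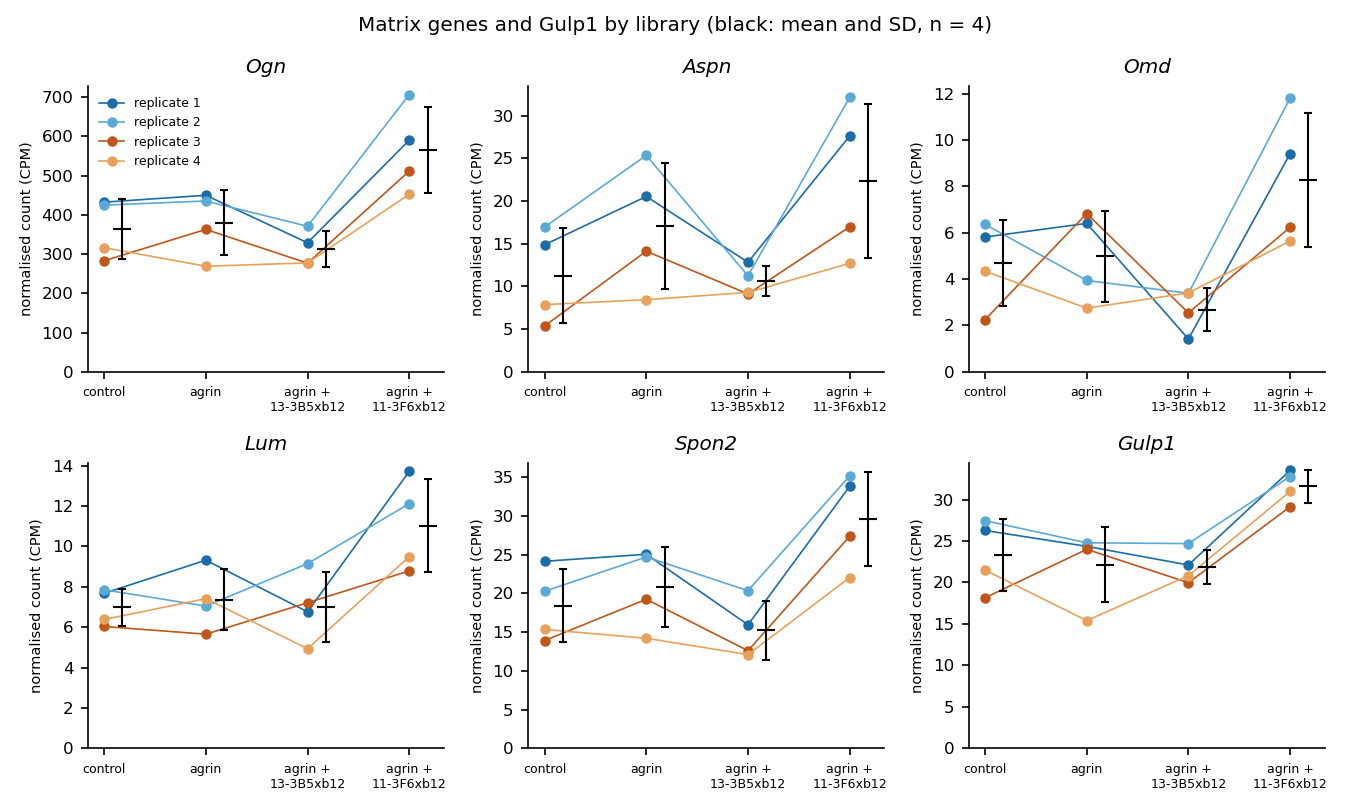
Normalised count (CPM, vertical axis, from 0) of Ogn, Aspn, Omd, Lum, Spon2 and Gulp1 in the control, agrin, agrin with 13-3B5xb12 and agrin with 11-3F6xb12 groups. Lines join libraries of the same replicate number and black marks give the mean and SD (n = 4 per group). For Ogn and Gulp1 the 4 libraries with 11-3F6xb12 lie above the 4 agrin libraries.

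Spon2, which encodes spondin 2, a secreted matrix protein, had the smallest p after Ogn and mt-Nd1. It was at 25, 24.7, 19.2 and 14.2 CPM in agrin and at 33.8, 35.2, 27.4 and 22 CPM with 11-3F6xb12 (log2 fold change 0.52, SE 0.11, edgeR adjusted p = 0.26). The pairs differed by 0.43 to 0.63, all in one direction, while replicate 4 of the antibody group lay below replicates 1 and 2 of the agrin group. DESeq2's Wald test gave an adjusted p of 0.024.

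Structural matrix genes included no called gene. Of 51 tested matrix glycoproteins none was called, 2 were higher (Spon2 and Fbln7) and 5 lower at an unadjusted p under 0.05, against 2.86% and 1.97% of all genes, and 38 had a negative log2 fold change, with a median of -0.07. Without replicate 3, 2 members were higher and none lower at the same threshold, with a median of -0.03. Fn1 and Hspg2 are named here after their values were seen. Fn1, which encodes fibronectin, was at 1370, 1296, 1530 and 1092 CPM in agrin and at 990, 980, 934 and 1007 CPM with the antibody (-0.43, SE 0.18, adjusted p = 0.98), with no overlap between the groups, as for 1.24% of all genes on the lower side. Hspg2, which encodes the basement membrane proteoglycan perlecan, was at 146, 115, 149 and 142 CPM and at 99.4, 95.2, 108 and 130 CPM (-0.35, SE 0.14). Ccn5, a member of the CCN family of matricellular proteins, was at 69.0 ± 5.20 and 59.7 ± 8.98 CPM and lower in 4 of 4 pairs (-0.22, SE 0.07, adjusted p = 0.87).

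Among 31 tested collagen chains none was called, and none was higher and 2 were lower at an unadjusted p under 0.05, against 2.86% and 1.97% of all genes. Of the 31, 21 had a negative log2 fold change, and the median was -0.07. The collagen median was -0.08 for agrin with 13-3B5xb12 over agrin, 0.04 for 11-3F6xb12 over control and 0.15 for agrin over control. The 2 were Col4a2, a basement membrane chain (63.5 ± 7.09 to 51.4 ± 6.82 CPM, -0.30, SE 0.11), and Col5a3, a fibrillar chain (52.9 ± 6.32 to 40.7 ± 8.13 CPM, -0.39, SE 0.18). The summed collagen share of the counts was 0.748% to 0.828% in agrin and 0.652% to 0.717% with 11-3F6xb12. As shares of library totals these values move with the mt-Rnr2 share given below, which was 4.23 percentage points higher with the antibody, and the shares of the myotube, sarcomere, synaptic, myoblast and cytosolic ribosomal protein lists were also lower in 4 of 4 pairs. The median of the list moved to -0.01 without replicate 3. Of 38 matrix enzymes, only Mmp3, a stromelysin, passed an unadjusted p under 0.05, at 2.12 ± 1.18 and 1.27 ± 1.13 CPM (-0.82, SE 0.39). In bulk libraries a change in the number of cells of a kind and a change in RNA per cell cannot be told apart. The fibroblast and tendon markers, a candidate source of matrix RNA, had 11 of 12 names in the table, and their sum was 599 to 724 counts per 1000000 in agrin and 552 to 644 with the antibody. Members of that list were well expressed in both groups: Scx, a tendon transcription factor, had 5136 to 7286 counts per library, Ly6a 5318 to 7184, Cd34 795 to 1270 and Pdgfra 281 to 512. Dpt, Pi16, Mkx, Fap and Twist2 had 6 to 246 counts, and Tnmd and Thy1 had 0 to 1 and 0 to 5. Their part in the matrix values was not tested.

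Mitochondrially encoded RNA was the other group with a called gene. The mitochondrial genome is transcribed as long precursors from both strands, which are then cut into 2 ribosomal RNAs, the messenger RNAs of respiratory chain subunits and the transfer RNAs. mt-Rnr1, mt-Rnr2, mt-Nd1 and mt-Nd2 lie in that order on the plus strand of the reference, with transfer RNA genes between them, and mt-Nd1 (ENSMUSG00000064341) occupies chrM:2751-3707.

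mt-Nd1 was at 162, 138, 182 and 209 CPM in agrin and at 239, 264, 242 and 257 CPM with 11-3F6xb12. The groups did not overlap, as for 1.66% of all genes on the higher side. The antibody libraries were the more uniform of the 2 sets: 173 ± 30.4 against 251 ± 12.2 CPM (SD, n = 4). The fold was 1.47 (log2 fold change 0.56, SE 0.09, edgeR adjusted p = 0.0101). None of its 75-base windows occurs in the annotated transcripts of another gene. Copies in the genome outside annotated transcripts were not searched. The log2 fold change was 0.43 without replicate 2 and 0.54 with no replicate block, and the gene missed the threshold in both, as it did without replicate 2 or 3 of the agrin group (adjusted p = 0.15 and 0.094), without replicate 1 or 2 of the antibody group (0.12 and 0.080) and with a correction for exon length (0.053).

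Of the 13 mitochondrial protein-coding genes 11 are in the table and 9 were tested. Of these 9, 8 had a positive log2 fold change, 5 passed an unadjusted p under 0.05, all 5 of them higher against 2.86% of all genes, and the median was 0.31, with a range of 0.21 to 0.40 over the alternatives run. The list median was 0.10 for 11-3F6xb12 over control, -0.17 for agrin over control and -0.06 for agrin with 13-3B5xb12 over agrin. mt-Nd2, the neighbour of mt-Nd1 and another complex I subunit, was at 7.32, 5.77, 7.42 and 10.0 CPM in agrin and at 12.2, 14.3, 10.7 and 16.0 CPM with the antibody (0.83, SE 0.22, adjusted p = 0.71), again without overlap, as for 1.66% of all genes on the higher side. mt-Cytb, the cytochrome b of complex III, was at 175 ± 28.3 and 235 ± 28.0 CPM (0.43, SE 0.12), higher in 4 of 4 pairs. mt-Nd5, a further complex I subunit, was at 75 ± 8.27 and 90.2 ± 18.2 CPM (0.25, SE 0.10), higher in 3 of 4 pairs.

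mt-Co1, a core subunit of cytochrome oxidase, was at 7044, 6637, 5887 and 6052 CPM in agrin and at 8590, 9060, 6877 and 6433 CPM with 11-3F6xb12 (0.27, SE 0.08, adjusted p = 0.77). All 4 pairs pointed upward. Its value is uncertain because 39.8% of its 75-base windows also occur in nuclear copies of the mitochondrial genome, and the same holds for mt-Co2 (99.5%), mt-Co3 (99.9%) and mt-Nd4 (61.5%). mt-Co2 and mt-Co3 were at 1.03 and 4.94 CPM in agrin and at 1.31 and 6.16 CPM with the antibody, and mt-Nd4 was at 13.5 and 13.3 CPM. mt-Nd6, the protein gene on the other strand, was at 9.99 ± 2.05 and 11.2 ± 1.55 CPM (0.16, SE 0.17). The transfer RNAs were barely captured: 11 of 22 are in the table and 5 were tested, at means of 0.37 to 0.55 CPM over the 8 libraries. Of these mt-Tw and mt-Tp passed an unadjusted p under 0.05 (2.56, SE 0.78, and 1.77, SE 0.80), at levels of at most 1.55 CPM in any of the 8 libraries.

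The large ribosomal RNA of the mitochondrion, mt-Rnr2, held 31.3%, 30.5%, 25.4% and 26.0% of all counts in the agrin libraries and 35.9%, 35.8%, 29.5% and 29.1% with 11-3F6xb12. The share was higher in each of 4 pairs, by 4.23 ± 0.93 percentage points (SD, n = 4 pairs), while the groups overlapped because replicates 1 and 2 stood above replicates 3 and 4. On the normalised scale its log2 fold change was 0.29 (SE 0.07, edgeR adjusted p = 0.65), and that of the small ribosomal RNA mt-Rnr1 was 0.14 (SE 0.07). In the alternative fits mt-Rnr2 was called in 3 of 23, mt-Co1 in 3 of 24, and mt-Cytb and mt-Nd2 in 2 of 24 each. By the same measure mt-Nd1 was called in 17 of 24. All mitochondrially encoded genes other than mt-Rnr2 held 2.49% to 3.08% of the counts in agrin and 2.69% to 3.24% with the antibody, higher in 4 of 4 pairs by 0.16 ± 0.075 percentage points (SD). The control group, with no agrin, lay at 26.3% to 31.6% for mt-Rnr2, and the 13-3B5xb12 group at 27.2% to 32.4%. All libraries were depleted of ribosomal RNA, and mt-Rnr1 held at most 2.53% of the counts of any library. The part of the depletion step in the mt-Rnr2 share was not tested.

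**Figure D3:**
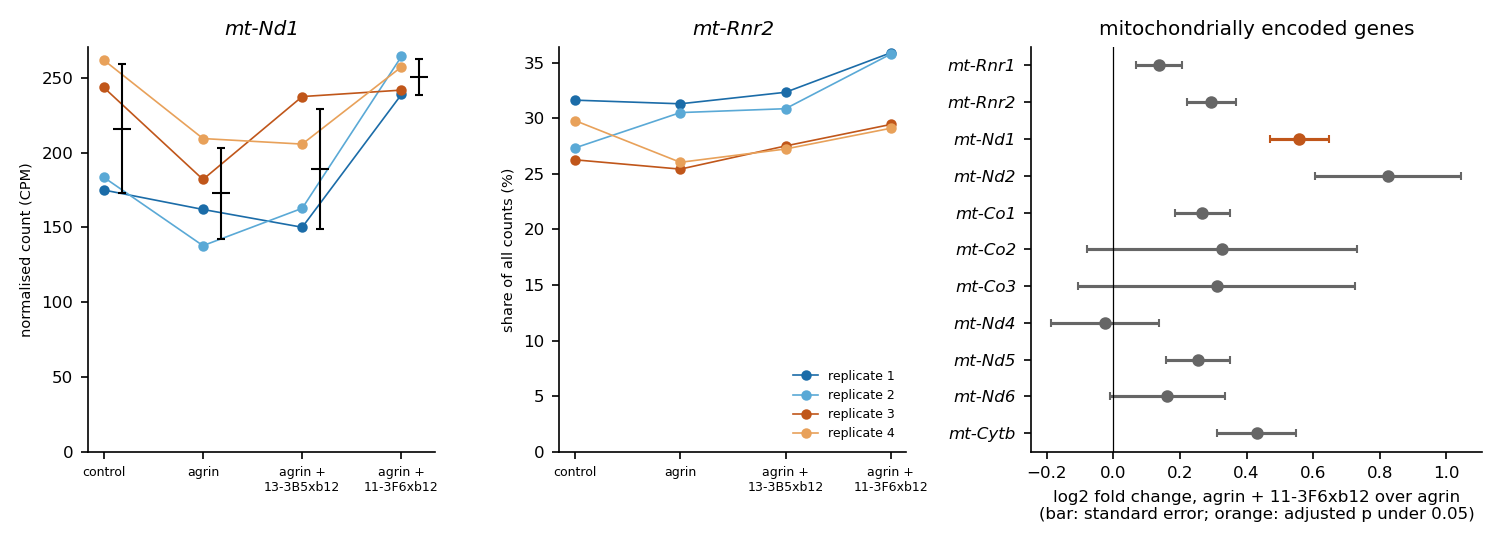
Left, normalised count of mt-Nd1 (CPM) in 4 groups, with lines joining libraries of the same replicate number and black marks for the mean and SD (n = 4). Middle, share of all counts held by mt-Rnr2 (%). Right, log2 fold change of agrin with 11-3F6xb12 over agrin for the 11 tested ribosomal RNA and protein genes of the mitochondrial genome, with standard errors: 10 of the 11 points lie above 0 and mt-Nd1 alone, in orange, has an adjusted p under 0.05.

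Nuclear genes of the respiratory complexes included no called gene. Of 36 nuclear complex I genes 1 passed an unadjusted p under 0.05, against 4.83% of all genes, Ndufa8, at 23.7 ± 2.18 and 19.7 ± 3.03 CPM (-0.27, SE 0.11), with a median log2 fold change of 0.01. Of 42 nuclear genes of complexes II to V none passed even the unadjusted threshold in edgeR's test, and the median was -0.01. Among 23 genes that replicate, transcribe or process mitochondrial DNA and RNA, Gabpa alone passed an unadjusted p under 0.05 (0.13, SE 0.06). Gabpa encodes an ETS factor that acts on nuclear genes for mitochondrial proteins and on synaptic genes of muscle. Ppargc1a, the coactivator of mitochondrial biogenesis, was scarce, at 0.273, 0.986, 0.337 and 0.375 CPM in agrin and 1.74, 2.13, 0.956 and 0.209 CPM with the antibody (1.15, SE 0.60). Tfam and Polrmt, the packaging factor and the RNA polymerase of the organelle, had log2 fold changes of -0.06 and -0.07.

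No gene of the receptor complex was called. Musk was at 43.9, 50.2, 54.6 and 51.2 CPM in agrin and at 50.6, 51.9, 59.8 and 53.3 CPM with 11-3F6xb12 (0.11, SE 0.08, unadjusted p = 0.19). Lrp4 was at 213 ± 22.7 and 203 ± 16.1 CPM (-0.07, SE 0.07), Dok7 at 20.4 ± 3.65 and 20.8 ± 3.04 CPM (0.03, SE 0.12), and the endogenous Agrn gene at 16.4 ± 2.58 and 16.7 ± 2.41 CPM (0.03, SE 0.15). Both of the last values turned negative under library totals. Of 17 tested genes of the MuSK complex, none was called, none was higher and 3 were lower at an unadjusted p under 0.05, against 2.86% and 1.97% of all genes: the adaptor Shc2, the membrane fusion ATPase Nsf and the phosphatase Ptpn11, by -0.20, -0.20 and -0.18.

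Synaptic genes are those that myonuclei under the nerve express at a high level. None of 33 was called, 3 were higher and 1 lower at an unadjusted p under 0.05, against 2.86% and 1.97% of all genes, and the median was -0.02. The acetylcholine receptor subunit Chrna1 was at 543, 572, 600 and 544 CPM in agrin and at 616, 621, 567 and 568 CPM with the antibody (0.07, SE 0.06). Chrnb1, the beta subunit, was at 108 ± 5.44 and 122 ± 12.9 CPM (0.18, SE 0.07, adjusted p = 0.94). Chrng, the fetal subunit, and Chrne, the adult one, had log2 fold changes of 0.02 (SE 0.13) and 0.33 (SE 0.28). Rapsn, which encodes rapsyn, was at 80.0 ± 6.64 and 82.9 ± 3.69 CPM. Dtna, which encodes the dystrophin-associated protein dystrobrevin, was at 64.8 ± 2.82 and 73.7 ± 6.05 CPM with no overlap between groups (0.18, SE 0.07), as for 1.66% of all genes on the higher side. Chrna1, Chrng, Chrne and Rapsn are named as the best-known members of the list, after their values were seen.

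Genes downstream of bone morphogenetic proteins were tested because MuSK binds these ligands. Of 22, none was called, 2 were higher (Car3 and Chrdl1) and 1 lower (Acvr1) at an unadjusted p under 0.05, against 2.86% and 1.97% of all genes, and the median was 0.09. Car3, a muscle carbonic anhydrase, was at 10.7, 14.0, 1.73 and 5.54 CPM in agrin and at 14.0, 16.7, 5.60 and 8.15 CPM with the antibody (0.60, SE 0.19, adjusted p = 0.80). The spread between replicates was larger than the difference, though 4 of 4 pairs were higher. Chrdl1, a secreted inhibitor of these ligands, was at 12.1 ± 5.28 and 15.6 ± 5.66 CPM (0.39, SE 0.14).

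Other signalling and muscle lists held no called gene, and their counts at an unadjusted p under 0.05 stand against 2.86% of all genes higher and 1.97% lower. Of 25 ERK pathway and immediate early genes, Myc and Dusp4 were higher and the ERK inhibitor Spred2 lower. Myc, a growth-promoting transcription factor, was at 2.77, 3.29, 3.58 and 3.58 CPM in agrin and at 4.54, 4.65, 4.01 and 4.98 CPM with 11-3F6xb12 (0.46, SE 0.21, adjusted p = 0.99), with no overlap between the groups, as for 1.66% of all genes on the higher side. Of 22 TGF-beta and myostatin genes, the receptor Tgfbr1 (61.6 ± 3.34 to 71.5 ± 3.44 CPM, 0.21, SE 0.08) and the ligand trap follistatin, Fst (87.8 ± 11.4 to 101 ± 12.7 CPM, 0.21, SE 0.08), were the 2 higher members.

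Of 44 sarcomere genes 3 were higher at an unadjusted p under 0.05 and none lower, with a median of 0.01: Actc1, cardiac actin of immature muscle, at 174 ± 21.7 and 203 ± 25.2 CPM (0.22, SE 0.08), Myh8, perinatal myosin, at 22.9 ± 2.38 and 27.3 ± 2.02 CPM (0.25, SE 0.12), and Lmod3, a thin filament nucleator (0.15, SE 0.07). Myh8 shares 12.9% of its 75-base windows with another transcript, chiefly of Myh1. Of 18 denervation and atrophy genes, the metallothionein Mt2 and the ubiquitin ligase Fbxo30 were the 2 higher members (0.39, SE 0.13, and 0.20, SE 0.08). Of the exonic bases of Mt2, 73.5% are shared with an antisense gene, so its count is uncertain. With library totals in place of TMM factors, the positive medians of the ERK, TGF-beta, denervation, sarcomere, interferon, nuclear complex I and mitochondrial gene expression lists turned negative, as did that of all genes.

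**Figure D4:**
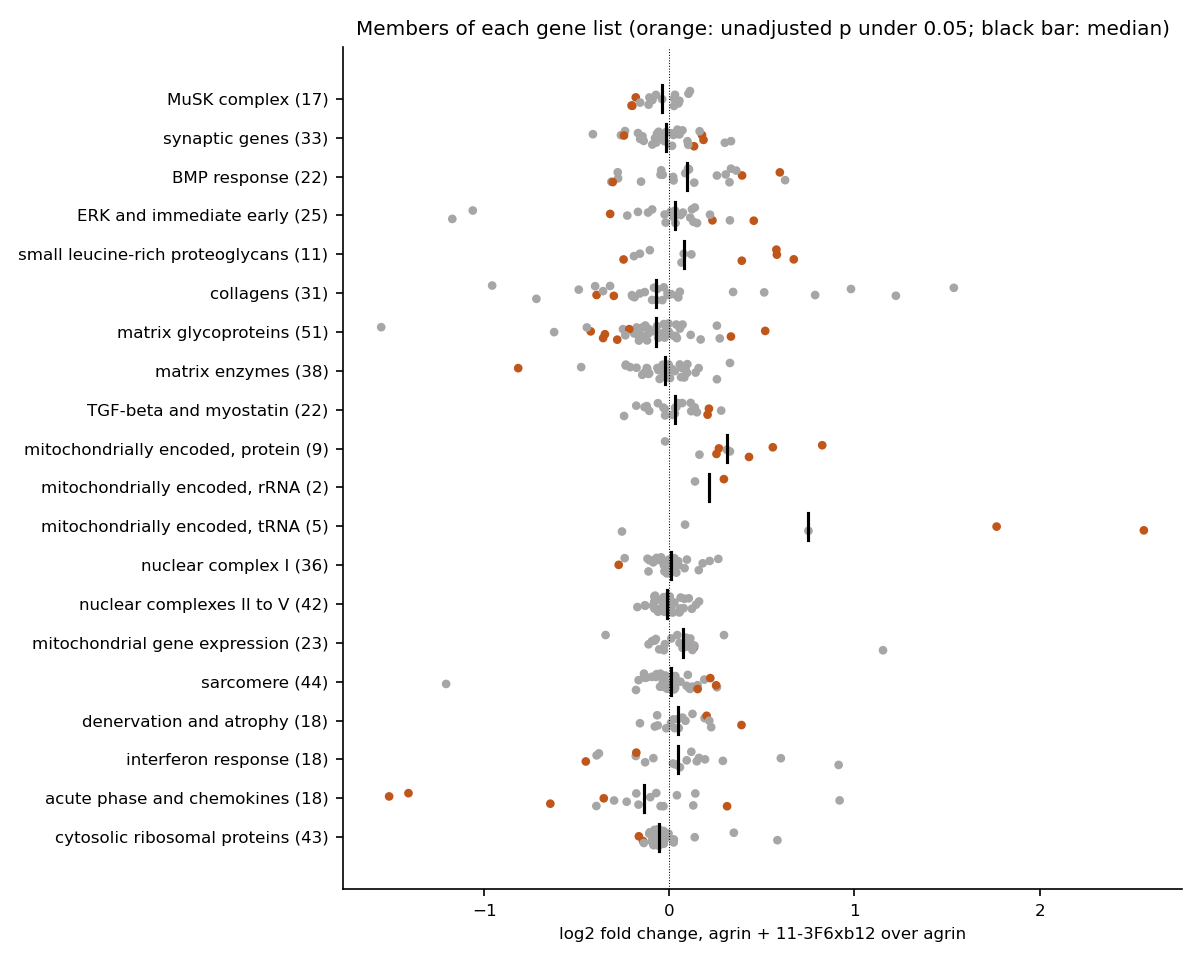
Log2 fold change of agrin with 11-3F6xb12 over agrin (horizontal axis) for every tested member of 20 gene lists (rows, with the number tested). Orange points had an unadjusted p under 0.05 and black bars are medians: the bars of the mitochondrially encoded lists lie right of 0, and those of the nuclear respiratory lists lie at 0.

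Inflammatory genes included no called gene. Of 18 acute phase and chemokine genes 4 were lower (Hp, Cebpd, Il6 and Saa3) and 1 higher (Ccl2) at an unadjusted p under 0.05, against 1.97% and 2.86% of all genes, with a median of -0.14. The lower count ran from 1 to 5 when single libraries or replicate numbers were left out, with 1 without replicate 2 of the agrin group. Hp, which encodes the haemoglobin-binding protein haptoglobin, was at 1.55, 0.704, 4.77 and 5.37 CPM in agrin and at 0.579, 0.742, 0.501 and 1.88 CPM with the antibody (-1.51, SE 0.38, edgeR adjusted p = 0.65), lower in 3 of 4 pairs. The agrin library of replicate 3, which held the hepatocyte RNA described above, was 1 of the 2 high libraries, and replicate 4, which did not, was as high. Without that library of replicate 3 the log2 fold change of Hp was -1.41. Cebpd, a transcription factor of the acute phase, was at 53.4 ± 9.50 and 41.9 ± 9.13 CPM and lower in 4 of 4 pairs (-0.35, SE 0.13). Of its exonic bases, 15% are shared with Spidr on the opposite strand, so its count is uncertain. Of 18 interferon response genes, 2 were lower at the unadjusted threshold, Stat2 (-0.45, SE 0.19) and H2-D1 (-0.18, SE 0.09), and none higher.

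Of 43 cytosolic ribosomal protein genes, 37 had a negative log2 fold change, with a median of -0.06, against -0.00 over all genes. At an unadjusted p under 0.05, 2 members, Rplp2 and Rps9, were lower (-0.17 and -0.14, SE 0.07 for each), against 1.97% of all genes. They share 23.1% and 9.74% of their 75-base windows with other transcripts, so their counts are uncertain. The list median was -0.13 for agrin with 13-3B5xb12 over agrin, -0.01 for 11-3F6xb12 over control and 0.04 for agrin over control. The 12 markers of dividing cells had a median of -0.30, with 10 negative and 1, Ccnb1, past the unadjusted threshold, against 1.97% of all genes lower. Their median was -0.36 for agrin with 13-3B5xb12 over agrin, 0.06 for 11-3F6xb12 over control and 0.40 for agrin over control. Their sum was 237, 290, 336 and 194 counts per 1000000 in the agrin libraries and 201, 256, 179 and 180 with 11-3F6xb12. The widest gap was in replicate 3, and without that replicate the median was -0.08. The part of dividing cells in the histone and other lower values was not tested. The 54 tested replication-dependent histone genes, a set chosen after values were seen, had a median of -0.14.

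Beyond these lists the genes were ranked by p among those of at least 5 CPM that moved one way in 4 of 4 pairs, as did 7.79% of all genes upward and 6.86% downward. The 8 highest-ranked upward genes were Ogn, mt-Nd1, Spon2, Gulp1, Sh3bgrl, mt-Rnr2, Car2 and Capza1-ps1. Gulp1, an adaptor for the engulfment of apoptotic cells, was at 24.4, 24.8, 24.0 and 15.4 CPM in agrin and at 33.5, 32.8, 29.1 and 31.0 CPM with the antibody (0.52, SE 0.11, edgeR adjusted p = 0.28). The groups did not overlap, as for 1.66% of all genes on the higher side. Agrin replicate 4 stood below the other 3, and without that library the log2 fold change was 0.38. Without agrin replicate 3, the library with hepatocyte RNA, Ogn and Gulp1 were the 2 genes called.

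Sh3bgrl, a small thioredoxin-like protein, was at 145 ± 14.5 and 180 ± 22 CPM (0.31, SE 0.08). Car2, a carbonic anhydrase encoded on chromosome 3 like Car3, was at 13.5, 18.1, 1.77 and 4.50 CPM and at 21.1, 25.9, 5.87 and 5.52 CPM (0.71, SE 0.18), with replicates 1 and 2 far above replicates 3 and 4 in both groups. Capza1-ps1 is a pseudogene that shares 75.7% of its 75-base windows with other transcripts, chiefly of Capza1, so its value is uncertain.

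The 8 highest-ranked downward genes were Sipa1l1, H4c6, Polr2a, Eif5b, Vps13c, Nsd3, H2bc14 and Syne2, and none was called. Sipa1l1, a Rap GTPase-activating protein, was at 41.2, 45.3, 49.8 and 46.7 CPM in agrin and at 32.3, 31.1, 37.3 and 41.1 CPM with the antibody (-0.37, SE 0.09, adjusted p = 0.65). Its groups did not overlap, as for 1.24% of all genes on the lower side. Polr2a, the catalytic subunit of RNA polymerase II, was at 21.8, 15.5, 22.7 and 19.7 CPM and at 13.1, 10.7, 16.1 and 13.8 CPM (-0.57, SE 0.15). Syne2, which encodes a nesprin that ties the nucleus to the cytoskeleton, was at 54.9 ± 15.9 and 39.5 ± 6.92 CPM (-0.46, SE 0.12).

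Of the downward genes Eif5b, a translation initiation factor, Vps13c, a lipid transfer protein, and Nsd3, a histone methyltransferase, also had no overlap between groups, with log2 fold changes of -0.48, -0.41 and -0.47. On the lower side 1.24% of all genes had no overlap. Ranking by p among genes with 4 of 4 pairs in one direction favours such genes, so it adds no support. H4c6 and H2bc14 are histone genes, at -0.61 and -0.58, and share 24.6% and 16.9% of their windows with other transcripts, while 16.8% of the exonic bases of Eif5b are shared with Rev1 on the opposite strand. The 2 histone genes were at -0.45 and -0.58 for agrin with 13-3B5xb12 over agrin. For 11-3F6xb12 over control they were at -0.07 and 0.02, and for agrin over control at 0.54 and 0.60. The non-histone genes of this group have many exonic bases in total, from 7067 in Polr2a to 26726 in Syne2. Across 1994 genes of at least 5 CPM with over 8000 exonic bases the median log2 fold change was -0.02, and it was -0.03, 0.03, -0.08 and 0.02 in pairs 1 to 4. With a per-library correction for exon length, chosen after seeing the data, the log2 fold changes were -0.34 for Sipa1l1, -0.56 for Polr2a, -0.47 for Eif5b, -0.37 for Vps13c, -0.43 for Nsd3 and -0.40 for Syne2, with edgeR adjusted p from 0.088 to 0.29.

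The 11-3F6xb12 libraries were also set against those with 13-3B5xb12 and against the control without agrin; these comparisons use the same 11-3F6xb12 libraries as the one above. Against 13-3B5xb12, 5 genes were called (0.0342%), with Ogn, Spon2, Tspan8 and Aspn higher (0.0274%) and Hp lower (0.00685%) with 11-3F6xb12. At an unadjusted p under 0.05, 6.19% of genes passed, 3.48% higher and 2.71% lower. The count was 2 to 3 without replicate 1, 2 or 3 of the 11-3F6xb12 group or replicate 2 or 3 of the 13-3B5xb12 group, and 9 to 10 without replicate 4 of the former or replicate 1 or 4 of the latter. Under library totals 13 were called, 3 higher and 10 lower, and with no replicate block none was, with 617 at an unadjusted p under 0.05. Against the control without agrin, 3 genes were called (0.0205%), Ogn, Spon2 and Aspn, all higher, and again none with no replicate block (474 at an unadjusted p under 0.05). With the block 4.64% passed an unadjusted p under 0.05, 2.3% higher and 2.33% lower. It was 1 gene without replicate 3 of the 11-3F6xb12 group or replicate 2 or 3 of the control group, and 2 to 3 without each other library of these groups. Both counts came from edgeR's test. DESeq2's Wald test with the block gave 29 and 3.

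Ogn in the 13-3B5xb12 group was at 329, 371, 277 and 278 CPM and in the control group at 432, 425, 283 and 316 CPM, so that the 11-3F6xb12 libraries, at 453 to 707 CPM, lay above every library of the agrin, 13-3B5xb12 and control groups. The fifth group of the series, given bivalent 13-3B5 without agrin, reached 474 CPM. The difference from 13-3B5xb12 was 0.84 (edgeR adjusted p = 1.85e-08) and from control 0.64 (adjusted p = 1.21e-05). Spon2 was at 15.9, 20.3, 12.6 and 12.1 CPM with 13-3B5xb12 and 24.1, 20.3, 13.9 and 15.3 CPM in control, with differences of 0.96 and 0.69 (adjusted p = 9.75e-06 and 0.0057). Aspn was at 12.8, 11.2, 9.12 and 9.30 CPM with 13-3B5xb12 and 14.9, 17.0, 5.37 and 7.87 CPM in control, with differences of 0.99 and 1.00 (adjusted p = 0.035 and 0.0496). Tspan8, a tetraspanin named here after its value was seen, differed from the 13-3B5xb12 group by 0.81 (adjusted p = 0.0086) and from agrin alone by 0.25 (SE 0.13).

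mt-Nd1 had another order of groups. It was at 150, 163, 237 and 206 CPM with 13-3B5xb12 and at 175, 184, 244 and 262 CPM in control, where replicates 3 and 4 reached the range of 11-3F6xb12. Its difference from 13-3B5xb12 was 0.43 (edgeR adjusted p = 0.066) and from control 0.24 (adjusted p = 1.00), and that of agrin alone from control was -0.32. Between agrin and control no gene was called in edgeR's test, with 582 at an unadjusted p under 0.05.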

How the data were processed

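RNA from C2C12 myotubes was extracted with the miRNAeasy Mini kit and sequenced as ribosomal RNA-depleted stranded total RNA, per the labels' protocols. The authors deposited whole-number read counts per Ensembl gene, used here as deposited. The submitters' processing notes name Trim Galore 0.6.6, cutadapt 2.10, STAR 2.7.6a, HTSeq 0.12.4, DESeq2 1.32.0 and GRCm38; the strand setting and annotation release are not given in the sources used here. Counts of the 20 libraries were fitted in edgeR 4.0.16 (R 4.3.3; TMM, filterByExpr, quasi-likelihood F-test, robust) with treatment and replicate number as terms and 12 residual degrees of freedom, two-sided, with Benjamini-Hochberg adjustment over 14605 of 26722 genes. CPM values are counts per 1000000 of the TMM-scaled library size. SE is that of the log2 fold change. GENCODE M21 (GRCm38) gave positions for 26667 gene IDs, with 55 unmatched, and RefSeq the promoters. DESeq2 1.42.0 and limma 3.58.1 served as alternatives.

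The design text calls the 4 libraries per group biological replicates, but separate cultures are not described. The p-values of the main fit measure the spread between libraries that remains after treatment and replicate number are fitted, taken over all 20 libraries. They do not measure a spread between cultures known to be separate. Libraries were paired by number: same-numbered deviations correlated at 0.21, 0.26, 0.16 and 0.32 (mean 0.24) between the agrin and 11-3F6xb12 groups, over 11149 genes. Pairs of other numbers among replicates 1 and 2, or 3 and 4, correlated as highly, with a mean of 0.23, so the number itself added little. For 11-3F6xb12 against 13-3B5xb12 and control the mean same-number correlations were 0.14 and 0.25, and the lowest 0.053 and 0.095. Other numbers among replicates 1 and 2, or 3 and 4, gave means of 0.19 and 0.21. No 2 libraries of a group agreed within sampling noise.

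Genes named are those called (at most 10 per direction), the 8 of smallest unadjusted p in each direction with at least 5 CPM and 4 of 4 pairs in one direction, Musk, Lrp4, Agrn, Dok7, Ogn, Aspn, Spon2 and mt-Nd1, the 2 members of smallest p of each list, and all tested small leucine-rich proteoglycans and mitochondrial protein and rRNA genes. Members beyond those 2 of a count of 5 or fewer, neighbours such as Cenpp, and Tspan8, Tfam and Polrmt fall outside that rule, picked with their values in view. The comparison, lists and rule were chosen with earlier results of these data known. In simulated counts for the comparison of 11-3F6xb12 with agrin over 14605 genes, 16%, 86%, 100% and 100% of 50 genes of at least 5 CPM changed 1.2-, 1.5-, 2- and 4-fold were called, with 9 false calls. All these genes were changed in the same run. With many genes called, the adjusted threshold is easier to pass than in the data, where 2 were called. The shares are therefore not those recoverable in the data, where H4c6, at -0.61, had an edgeR adjusted p of 0.65.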

Additional observations from a re-analysis of the deposited data

Results flagged for a closer look

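Among groups of 4 libraries checked for 1 library far from the other 3, 5 of 160 stood out, where chance gives about 1 in 20. In the agrin group, Gulp1 in replicate 4 was at 15.4 CPM against 24.0 to 24.8 in the others, and Stat2 in the same library was at 7.74 CPM against 9.91 to 10.2. Ppargc1a in replicate 2 was at 0.986 CPM against 0.273 to 0.375, and Ecm2 in the same library was at 7.18 CPM against 3.25 to 3.82. The hepatocyte genes in replicate 3 summed to 33.6 CPM against 0.398 to 0.780.

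The effects of the 2 monovalent antibodies on agrin-treated myotubes differed for 5 genes in edgeR's test with the replicate block. Same-number correlations between these 2 groups were only 0.053 to 0.23. With no replicate block 0 genes differed (edgeR, smallest adjusted p = 0.77, 617 genes at an unadjusted p under 0.05). The effect of 11-3F6xb12 exceeded that of 13-3B5xb12 by 0.99 for Aspn, 0.84 for Ogn, 0.81 for Tspan8 and 0.96 for Spon2 on the log2 scale, and for Hp it was -2.04. For Ogn the effect over agrin alone was 0.58 with 11-3F6xb12 and -0.26 with 13-3B5xb12. For Hp the effects over agrin alone were -1.51 and 0.52, and neither was called. For agrin with 13-3B5xb12 over agrin no gene was called (edgeR, smallest adjusted p = 0.93), with 733 at an unadjusted p under 0.05. The -0.26 for Ogn was therefore not called either.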

How the results depend on the processing

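For 11-3F6xb12 against agrin 2 genes were called: 0 with no replicate block (pairing dropped), 30 with no filter on low counts, 19 with only the 2 groups fitted, 17 without the 2 libraries set apart on the second principal component, 11 with limma voom, and 1 both without mitochondrially encoded genes and with exon length correction. Leaving out 1 library or replicate number gave 1 to 2, and 1 (Ogn) without replicate 2 of agrin, replicate 1 or 2 of 11-3F6xb12, or replicate number 2. Against 13-3B5xb12 the count of 5 became 0 with no block, 29 with DESeq2's Wald test, 65 with no filter, 2 with only 2 groups, 16 without those 2 libraries, 14 with voom, 10 with replicates 1 and 2 against 3 and 4 as block, 12 with length correction and 13 with library totals, and 2 to 10 in leave-one-out fits. Against control the count of 3 became 0, 30, 5 and 1 with no block, no filter, without those 2 libraries and with library totals, and 1 to 3 in leave-one-out fits. Length correction and library totals were chosen after seeing the data. The cause was not tested. Of 1784 values of single genes, 1695 kept their direction and side of the threshold, 8 lost a call, 50 gained one and 31 turned, in 8 genes that were never called: library totals gave Agrn -0.063, Dok7 -0.060, Ecm2 -0.012 and Prelp -0.027, and Fmod was 0.028 with 2 groups and 0.44 with voom. In leave-one-out fits log2 fold changes ran from -0.15 to 0.14 for Agrn, -0.27 to 0.013 for Bgn, -0.12 to 0.11 for Dok7, -0.047 to 0.25 for Ecm2, -0.78 to 0.96 for Fmod, -0.18 to 0.48 for Prelp, -0.21 to 0.16 for mt-Nd4 and -0.057 to 0.35 for mt-Nd6. Simulated 1.2-fold changes in genes of at least 5 CPM were called in 16% of cases, and rarer genes were not simulated, so small differences may have been missed. Larger ones may have been missed too, because the simulation held many changed genes, which makes the adjusted threshold easier to pass.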
